A study of Homo sapiens with 6 samples.

Results

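The genes described here handle cellular zinc: the SLC30A family, the SLC39A family, the metallothioneins and the transcription factor MTF1. They were chosen by gene symbol from the deposited table (SLC30A, SLC39A or MT1 names, MT2A and MTF1), which gave 35 of the 61806 genes in it. No measured value entered that choice, but this set of genes was taken up with results of the si-STRIP2 and si-NC comparison known, so the counts below describe these genes and are no independent evidence about the family. The set holds 10 SLC30A genes, 14 SLC39A genes, 10 metallothioneins and MTF1.

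The data are RNA-seq of HCT116, an established human colorectal carcinoma cell line, grown in McCoy's 5A medium with fetal bovine serum. Control cells (si-NC, 3 libraries, genotype wildtype in the labels) had received a control short interfering RNA. The knockdown cells (si-STRIP2, 3 libraries) had received one directed at STRIP2, whose protein belongs to the STRIPAK phosphatase and kinase complex. All 6 share the cell line and culture medium. The labels give no sequence for either short interfering RNA, no time after transfection, and no word on separate cultures within a group, so that p-values measure the spread between these libraries, which may be technical.

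Zinc is a cofactor of many enzymes and transcription factors, and its free level in the cytosol is kept low. SLC30A proteins (also called ZnT) mostly carry zinc out of the cytosol, across the plasma membrane or into organelles, and SLC39A proteins (ZIP) carry it into the cytosol. Exceptions described below are SLC30A9, which carries zinc out of mitochondria, and SLC30A10, mainly a manganese exporter. Metallothioneins are small cysteine-rich proteins that bind zinc and copper. MTF1 senses zinc and binds metal response elements in front of metallothionein genes and of SLC30A1, so that these genes rise when cells take up excess zinc.

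Promoter sequence of SLC30A1, SLC30A4, MT2A and MT1X is shown because SLC30A1 and SLC30A4 had the largest falls of the set while the metallothioneins, the classical MTF1 targets, changed little. Each line gives the 250 bases before the RefSeq start (GRCh38.p14), 5′ to 3′ on the strand of the gene. Capitals mark each metal response element core, TGCACNC or TGCGCNC, read on either strand, and overlapping cores would run together. SLC30A1 is chr1:211579162-211579411 (minus strand), SLC30A4 is chr15:45522756-45523005 (minus), MT2A is chr16:56608334-56608583 (plus) and MT1X is chr16:56682220-56682469 (plus).
SLC30A1: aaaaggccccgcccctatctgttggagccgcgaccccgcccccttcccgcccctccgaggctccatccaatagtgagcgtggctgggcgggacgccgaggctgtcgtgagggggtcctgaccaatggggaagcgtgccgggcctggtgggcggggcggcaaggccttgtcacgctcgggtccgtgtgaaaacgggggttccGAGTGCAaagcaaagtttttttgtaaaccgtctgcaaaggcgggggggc
SLC30A4: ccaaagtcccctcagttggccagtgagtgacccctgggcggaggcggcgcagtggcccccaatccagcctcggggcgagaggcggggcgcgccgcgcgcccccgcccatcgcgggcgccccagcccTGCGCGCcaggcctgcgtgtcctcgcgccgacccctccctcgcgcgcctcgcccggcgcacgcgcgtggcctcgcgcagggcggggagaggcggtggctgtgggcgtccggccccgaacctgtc
MT2A: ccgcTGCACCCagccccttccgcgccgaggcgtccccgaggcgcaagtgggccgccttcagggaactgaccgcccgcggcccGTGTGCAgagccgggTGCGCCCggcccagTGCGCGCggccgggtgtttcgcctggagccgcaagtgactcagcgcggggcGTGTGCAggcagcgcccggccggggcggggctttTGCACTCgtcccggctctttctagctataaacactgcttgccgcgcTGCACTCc
MT1X: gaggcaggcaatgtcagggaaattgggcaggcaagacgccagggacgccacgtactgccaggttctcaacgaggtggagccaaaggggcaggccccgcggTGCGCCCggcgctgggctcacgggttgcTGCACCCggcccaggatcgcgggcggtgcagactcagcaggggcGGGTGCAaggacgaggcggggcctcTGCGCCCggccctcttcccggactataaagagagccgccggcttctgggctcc

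In the full window of 300 bases, which adds the first 50 bases after the start, SLC30A1 held 2 cores, SLC30A4 1, MT2A 8 and MT1X 4. SLC30A3, which rose (log2 fold change 1.03) and whose sequence is not shown, held 2 and 1 cores in its 2 promoters. The core of SLC30A1 shown above lies at -49 to -43 from the start, and the other at 25 to 31 after it. Of 35116 promoters of this length in the RefSeq table, 29.6% held at least 1 core, 8.60% at least 2 and 0.601% at least 4. Promoters were found for 26 of the 35 genes, 35 promoters in all, and 16 of the 26 genes held a core in at least 1 of them, a count that is helped by genes with several starts. All 4 metallothioneins with an entry (MT1B, MT1H, MT1X and MT2A) held 3 to 8 cores, whereas no SLC39A promoter held more than 1 and MTF1 held 0. A match of these letters is a description and not a binding site.

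Of the 35 genes, 23 passed the filter on low counts and were tested. Of those, 16 had an edgeR adjusted p under 0.05 and are described as called, 13 lower and 3 higher in si-STRIP2 cells. Over all 15687 tested genes, 54.8% were called, 27.0% lower and 27.8% higher, so that a call alone is common in this comparison. The median log2 fold change of the 23 was -0.14, beside 0.014 over all tested genes, and the median size of the change was 0.18 beside 0.26. Only 3 of the 23, SLC30A1, SLC30A4 and SLC30A3, were called with a change of at least 1.5-fold, and 14.5% of all tested genes were. The FPKM values (fragments scaled by exonic length and library total) were separate between groups for 18 of the 23, 15 lower and 3 higher, beside 58.6% of all tested genes. That 58.6% takes both directions together, and its split by direction was not counted. Tested against a change of 1.2-fold in place of no change, 5 of the 16 kept their calls (SLC30A1, SLC30A3, SLC30A4, SLC30A9 and SLC39A11) and 11 lost them. The share of all tested genes called in that test was not counted, so it gives no background for the 5. In bulk libraries such as these, fewer cells with a transcript and less of it per cell cannot be told apart.

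**Figure D1:**
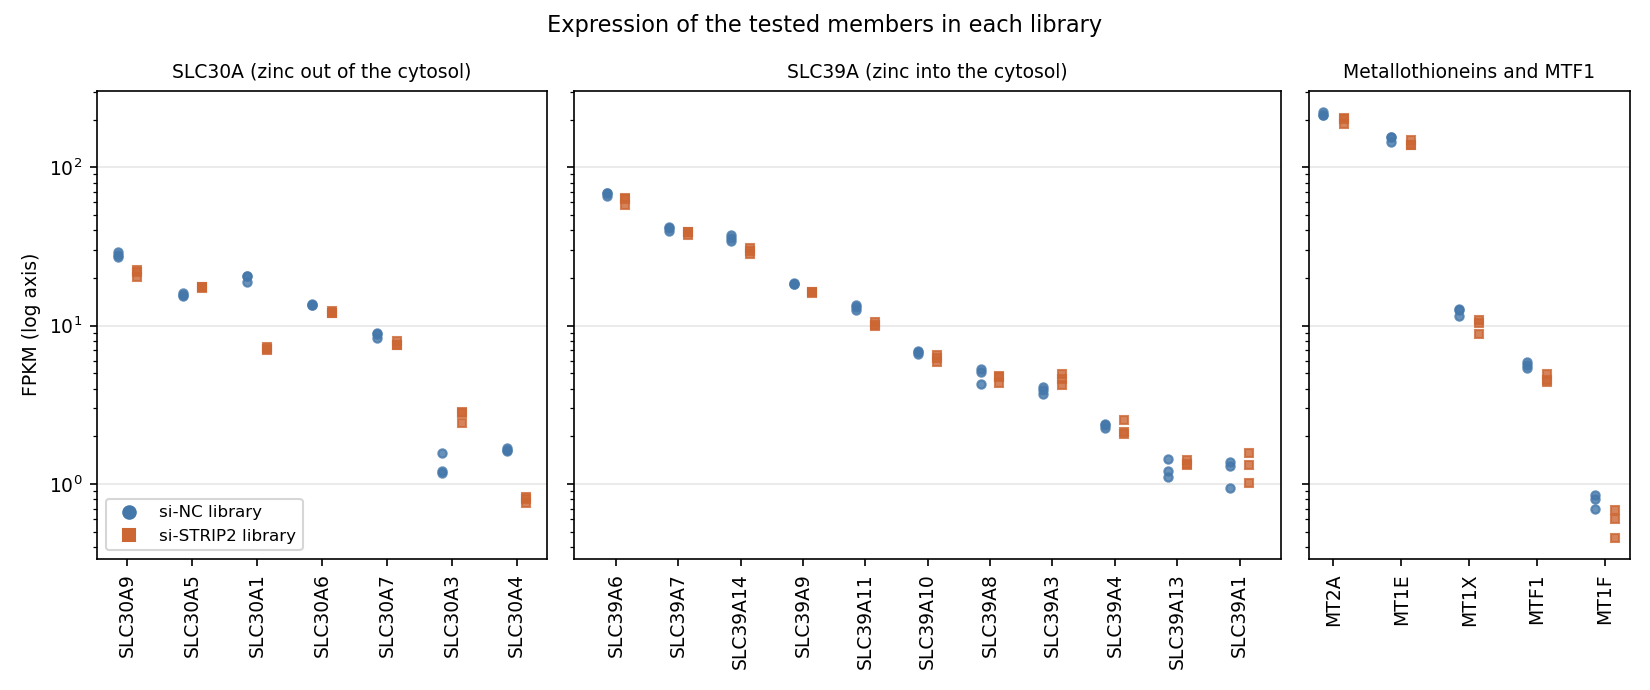
FPKM (log axis) of the 23 tested genes in each of the 3 si-NC (circles) and 3 si-STRIP2 (squares) libraries, ordered within each panel by mean level. MT2A and MT1E stand highest, and the gap between groups is widest for SLC30A1.

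**Figure D2:**
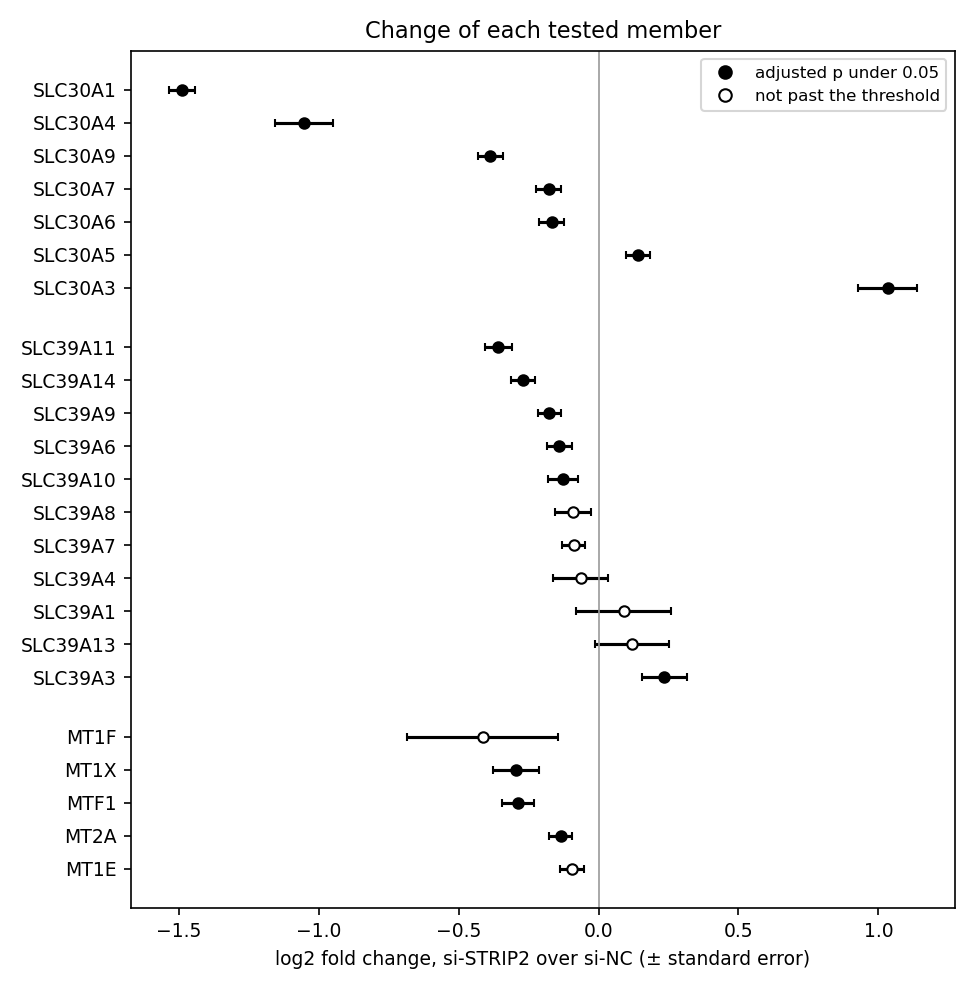
Fitted log2 fold change of each tested gene, si-STRIP2 over si-NC, with its standard error; filled points had an edgeR adjusted p under 0.05. The SLC30A genes run from -1.49 to 1.03, and the SLC39A genes from -0.36 to 0.24.

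As a check of the labels, STRIP2 had 3.19, 3.77 and 3.81 FPKM in si-NC and 2.71, 2.53 and 2.58 in si-STRIP2 (log2 fold change -0.46 with its standard error, SE, at 0.083, edgeR adjusted p = 1.62e-05), 72.6% of the control in the mean. Among called genes 1808 fell further than STRIP2, so its fall is a weak check of the labels. Total counts were 17184963 to 21721218 per library. Of 6 colorectal epithelial markers, 5 were expressed, with sums of 688.5 to 718.1 FPKM in si-NC and 664.1 to 687.5 in si-STRIP2, and VIL1 was at most 0.023 FPKM in the mean of either group. Within that sum CDH1 fell from 36.6 to 24.18 FPKM (log2 fold change -0.60, edgeR adjusted p = 1.57e-14), KRT18 and EPCAM fell by 0.18 and 0.11 and KRT19 rose by 0.22 on the log2 scale, and KRT8 was not called. In any library the 4 leukocyte markers summed to at most 0.38 FPKM, and the 3 endothelial markers to at most 0.10. The 4 fibroblast markers summed to 2.17 to 2.62 FPKM in si-NC and 1.91 to 2.19 in si-STRIP2, nearly all of it COL1A1, while COL1A2 had 0 counts in every library.

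SLC30A1 encodes the transporter that exports zinc across the plasma membrane. Its gene (ENSG00000170385) lies on the minus strand of chromosome 1, 211571568 to 211579161 in the deposited coordinates. SLC30A1 had 18.92, 20.60 and 20.64 FPKM in si-NC and 7.0, 7.08 and 7.38 in si-STRIP2. Every si-STRIP2 library lay far below every si-NC library, and the si-STRIP2 values lay close together. The mean fell from 20.05 ± 0.982 to 7.15 ± 0.200 FPKM (SD, n = 3), to 35.7% of the control. This 2.81-fold fall corresponds to -1.49 on the log2 scale (SE 0.048, edgeR adjusted p = 4.29e-23). Only 154 called genes fell further. No other annotated gene overlaps SLC30A1 in the table, and it kept its call under each of 16 alternatives, at -1.53 to -1.37.

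SLC30A4 encodes a transporter of endosomes and other vesicles. It was much less abundant than SLC30A1, at 1.61, 1.65 and 1.70 FPKM in si-NC and 0.83, 0.76 and 0.80 in si-STRIP2. The groups were well apart, with little difference between libraries of a group. The mean went from 1.65 ± 0.0451 to 0.797 ± 0.0351 FPKM (SD, n = 3), a 2.08-fold fall (log2 fold change -1.05, SE 0.103, edgeR adjusted p = 1.21e-10). Genes on the opposite strand that overlap SLC30A4 held 4.79% as many counts. Counts behind these values were 281, 229 and 234 in si-NC and 125, 107 and 110 in si-STRIP2. On log2(FPKM + 1), where the pseudocount is above its level in si-STRIP2, the change was -0.56 and still called.

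SLC30A3 moved the other way. It is best known as the transporter that loads zinc into synaptic vesicles of neurons. It had 1.18, 1.21 and 1.56 FPKM in si-NC and 2.84, 2.79 and 2.44 in si-STRIP2, and the groups did not overlap. The mean rose from 1.32 ± 0.211 to 2.69 ± 0.218 FPKM (SD, n = 3), a 2.05-fold rise (log2 fold change 1.03, SE 0.106, edgeR adjusted p = 3.92e-10), and 227 called genes rose further. On counts it went from 148, 121 and 155 to 308, 281 and 242, and on log2(FPKM + 1) the change was 0.67 and still called. DNAJC5G, which overlaps SLC30A3 on the other strand, held 13.2% as many counts, and 0.703% of the exonic bases of SLC30A3 are shared with it in GENCODE 29.

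**Figure D3:**
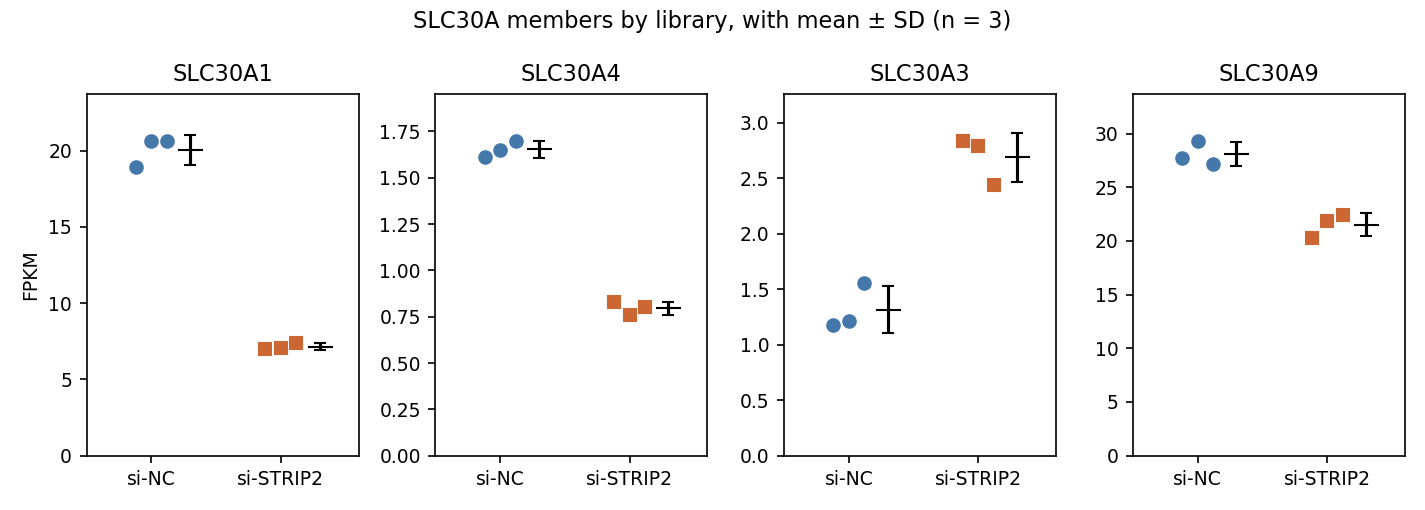
FPKM of 4 SLC30A genes in each library (circles si-NC, squares si-STRIP2), with the mean and SD of the 3 libraries beside them; each panel has its own axis from 0. SLC30A1, SLC30A4 and SLC30A9 are lower and SLC30A3 is higher in si-STRIP2, with no overlap between groups.

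SLC30A9, SLC30A5, SLC30A6 and SLC30A7 were called with smaller changes. SLC30A9, which carries zinc out of mitochondria, was the most abundant SLC30A gene over the 6 libraries. It had 27.75, 29.33 and 27.13 FPKM in si-NC and 20.29, 21.86 and 22.37 in si-STRIP2, with no overlap. It fell 1.31-fold (log2 fold change -0.39, SE 0.044, edgeR adjusted p = 2.75e-09).

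SLC30A5 and SLC30A6 form a heterodimer that loads zinc into the early secretory pathway, and the transcripts of the partners moved in opposite directions by small amounts. SLC30A5 had 16.13, 15.69 and 15.35 FPKM in si-NC and 17.56, 17.19 and 17.43 in si-STRIP2. It rose by 0.14 on the log2 scale (SE 0.043, edgeR adjusted p = 0.00584). SLC30A6 had 13.51, 13.76 and 13.48 FPKM in si-NC and 11.97, 12.37 and 12.04 in si-STRIP2. It fell by 0.17 on the log2 scale (SE 0.045, edgeR adjusted p = 0.00206). SLC30A7, which acts in the same compartments as a homodimer, fell by 0.18 (edgeR adjusted p = 0.00125).

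All 7 tested SLC30A genes were called, 5 lower and 2 higher, beside 54.8% of all tested genes called, 27.0% lower and 27.8% higher. The FPKM of the 10 SLC30A genes summed to 89.2 ± 1.86 in control and 69.5 ± 0.806 in knockdown libraries (SD, n = 3), a difference of 19.7. Without SLC30A1 the sums were 69.1 ± 1.30 and 62.3 ± 0.644, a difference of 6.82. SLC30A1 made up 22.5% ± 0.820 of the family's FPKM in si-NC and 10.3% ± 0.196 in si-STRIP2, and SLC30A5 17.6% ± 0.683 and 25.05% ± 0.497. In order of level, si-NC had SLC30A9, SLC30A1, SLC30A5, SLC30A6, SLC30A7, SLC30A4 and SLC30A3, and no neighbours in that order overlapped, although SLC30A4 and SLC30A3 came close. In si-STRIP2 SLC30A1 stood below SLC30A5, SLC30A6 and SLC30A7, and SLC30A3 above SLC30A4.

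The remaining SLC30A genes were barely detected. SLC30A2, a transporter of secretory vesicles, and SLC30A8, that of insulin granules in pancreatic beta cells, had 0 counts in every library, which allows up to 3 counts in each. SLC30A10, mainly a manganese exporter, had 5, 3 and 4 counts in si-NC and 5, 5 and 12 in si-STRIP2, and was not tested.

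The SLC39A genes were expressed at a higher summed level. Of 14, 11 were tested and 6 called, 5 lower and 1 higher, where 54.8% of all tested genes were called. The median of the 11 was -0.091 on the log2 scale and the median size of their changes 0.127, beside 0.387 for the SLC30A genes and 0.26 over all tested genes. Summed over the family, FPKM was 196.1 ± 4.63 in control and 176.7 ± 5.08 in knockdown libraries (SD, n = 3), so 90.1% of the control was left. The sum includes SLC39A1 and SLC39A9, whose values are uncertain for reasons given below. No tested SLC39A gene changed by 1.5-fold, where 14.5% of all tested genes were called with at least that change.

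SLC39A6, an importer of the plasma membrane, was the most abundant, at 68.66, 68.31 and 65.66 FPKM in si-NC and 57.52, 62.67 and 64.16 in si-STRIP2. The groups came close but did not overlap, and the log2 fold change was -0.14 (SE 0.043, edgeR adjusted p = 0.00666). Without si-STRIP2 replicate 1, the lowest library, it was -0.086 with an edgeR adjusted p of 0.118. SLC39A10, which forms heteromers with SLC39A6, had a log2 fold change of -0.13 and an edgeR adjusted p of 0.0433, a call lost under 11 of the 16 alternatives, among them the fits without any one library except si-STRIP2 replicate 1 (-0.14 to -0.092).

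SLC39A7 releases zinc from the endoplasmic reticulum. It had 41.77, 41.10 and 39.80 FPKM in si-NC and 37.59, 38.99 and 39.10 in si-STRIP2. The groups did not overlap, but the log2 fold change of -0.089 (SE 0.041) did not pass, with an edgeR adjusted p of 0.0657. It did under 4 of the 16 alternatives: with upper quartile scaling, with a filter of at least 1 or at least 5 FPKM in 3 libraries, and without si-NC replicate 3 (-0.11, edgeR adjusted p = 0.0218). RXRB on the other strand shares 8.58% of the exonic bases of SLC39A7 and held 27.3% as many counts.

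SLC39A14 carries manganese and iron not bound to transferrin as well as zinc. It had 35.63, 37.21 and 34.35 FPKM in si-NC and 28.28, 30.92 and 29.81 in si-STRIP2, all lower than any control. The mean fell from 35.7 ± 1.43 to 29.7 ± 1.33 FPKM (SD, n = 3; log2 fold change -0.27, SE 0.042, edgeR adjusted p = 1.59e-06). SLC39A8, the most similar transporter in the metals it carries, had 5.07, 5.36 and 4.29 FPKM in si-NC and 4.71, 4.36 and 4.81 in si-STRIP2, which overlap (log2 fold change -0.091, edgeR adjusted p = 0.237). Without si-NC replicate 3, the lowest control, it was -0.18 and called (edgeR adjusted p = 0.0127).

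SLC39A9, found in the Golgi and at the plasma membrane, had 18.65, 18.23 and 18.29 FPKM in si-NC and 16.14, 16.39 and 16.42 in si-STRIP2. The libraries of each group lay close together and apart from the other group, and the log2 fold change was -0.18 (SE 0.041, edgeR adjusted p = 0.000428). ERH, on the other strand, held 212% as many counts and shares 5.23% of the exonic bases, so the value of SLC39A9 is uncertain if strand was not used in counting. SLC39A11, the human member of the GufA subfamily, had the largest SLC39A change, from 13.05 ± 0.525 to 10.2 ± 0.280 FPKM (SD, n = 3; log2 fold change -0.36, edgeR adjusted p = 8.48e-08).

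SLC39A3, an importer of the plasma membrane, was the one SLC39A gene that rose, with a log2 fold change of 0.235 (edgeR adjusted p = 0.0126); the call was also lost under DESeq2 and when either si-STRIP2 replicate 2 (0.185) or si-NC replicate 1 (0.195) was dropped. SLC39A4, the intestinal importer whose loss causes acrodermatitis enteropathica, had a log2 fold change of -0.064 and an edgeR adjusted p of 0.607. SLC39A13 (0.12, edgeR adjusted p = 0.456) and SLC39A1 (0.089, edgeR adjusted p = 0.678) did not pass either. The low level of SLC39A1, 1.21 ± 0.227 FPKM in si-NC (SD, n = 3), is uncertain, because other genes share 69.1% of its exonic bases in GENCODE 29. SLC39A2, SLC39A5 and SLC39A12 had at most 5 counts in any library.

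The metallothioneins were the most abundant transcripts of the set per length, summing to 381.6 ± 9.97 FPKM in control and 351.0 ± 12.2 FPKM in knockdown libraries (SD, n = 3), or 92.0% of the control. The 10 genes lie on chromosome 16 from 56608584 to 56684196, a cluster of 75.6 kb in which 9 genes are on the plus strand. Only MT2A, MT1E, MT1X and MT1F passed the filter. MT2A made up 56.9% ± 0.993 of the summed FPKM in si-NC and 56.4% ± 1.07 in si-STRIP2, and MT1E 39.7% ± 0.977 and 40.5% ± 1.05.

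MT2A (chromosome 16, 56608584 to 56609497) had 212.7, 214.6 and 223.9 FPKM in si-NC and 201.3, 204.2 and 188.8 in si-STRIP2. The groups did not overlap, and the fall was small, with a log2 fold change of -0.135 (SE 0.041, edgeR adjusted p = 0.00590). The call was lost without si-STRIP2 replicate 3, the lowest library (-0.11, edgeR adjusted p = 0.0643). MT1E had 155.0, 143.9 and 155.4 FPKM in si-NC and 148.2, 139.1 and 139.0 in si-STRIP2. These values overlap, and its log2 fold change of -0.096 (SE 0.043) did not pass, with an edgeR adjusted p of 0.0576; 6 of 16 alternatives put it past the threshold, among them the fits that dropped si-STRIP2 replicate 1 (-0.118) or si-NC replicate 2 (-0.14).

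MT1X, at the far end of the cluster from MT2A, had 12.77, 12.58 and 11.46 FPKM in si-NC and 10.92, 10.33 and 8.84 in si-STRIP2. All si-STRIP2 values were lower than any control, and the log2 fold change was -0.295 (SE 0.082, edgeR adjusted p = 0.00269). MT1F was barely expressed, with 28, 26 and 27 counts in si-NC and 21, 15 and 22 in si-STRIP2 (log2 fold change -0.415, SE 0.270, edgeR adjusted p = 0.197). The other 6, MT1A, MT1B, MT1G, MT1H, MT1L and MT1M, had between 0 and 5 counts over all 6 libraries together. MT1H had 0 counts although its promoter held 8 cores, as many as that of MT2A.

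Metallothionein transcripts resemble each other, so reads can be hard to place. In GENCODE 29, windows of 50 bases that also occur in a transcript of another gene made up 3.02% of those of MT2A, 7.10% of MT1E, 1.22% of MT1F and 18.3% of MT1X. For MT1X, 3.64% of its windows occur in another metallothionein gene or pseudogene, and the rest only in AC026461.1, an annotated gene that shares 18.1% of the exonic bases of MT1X on the same strand. The one gene that overlaps MT1X in the deposited table had 0 counts. The 8 metallothionein entries with pseudogene symbols in the table held 0.120% as many counts as the 10 members, which were also chosen by symbol alone.

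**Figure D4:**
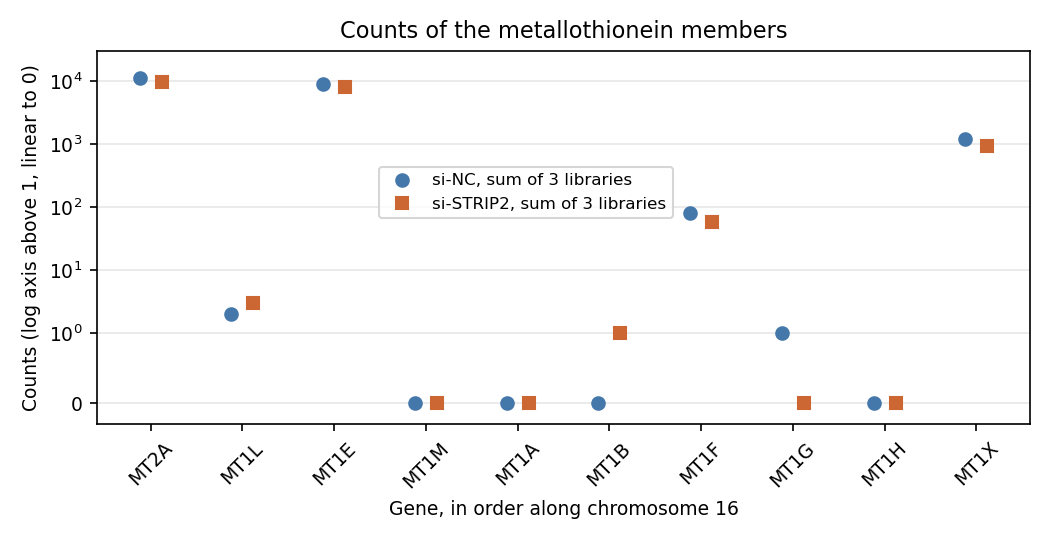
Counts of the 10 metallothionein genes, summed over the 3 libraries of each group, in their order along chromosome 16 (axis logarithmic above 1 and linear to 0). MT2A, MT1E, MT1X and MT1F carry nearly all counts, and the silent genes lie between them.

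MTF1 itself was lower. It had 5.66, 5.86 and 5.43 FPKM in si-NC and 4.97, 4.40 and 4.55 in si-STRIP2, with no overlap. The mean fell from 5.65 ± 0.215 to 4.64 ± 0.296 FPKM (SD, n = 3), and the log2 fold change of -0.29 (SE 0.057, edgeR adjusted p = 5.77e-05) was close to that of MT1X. Set side by side, the MTF1 targets with promoter sequence above changed by -1.49 (SLC30A1), -0.295 (MT1X) and -0.135 (MT2A) on the log2 scale. Their promoters held 2, 4 and 8 cores. MT1E, for which no promoter was found, changed by -0.096 and was not called. Among other SLC30A genes, SLC30A4 (-1.05) held 1 core, SLC30A3 (1.03) 2 and 1 in its 2 promoters, and SLC30A9 (-0.39) 0. Any part of MTF1 in these changes was not tested.

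Other genes of metal handling were taken from lists of zinc proteins, copper handling, manganese handling and zinc enzymes. Of 39 found in the table, 31 were tested and 17 called, 7 higher and 10 lower, beside 54.8% called over all tested genes, 27.8% higher and 27.0% lower. Their median change was -0.081 on the log2 scale, beside 0.014 over all. The copper list had 9 called of 13 tested, 4 higher and 5 lower. The zinc list outside the families had 3 called of 8, 1 higher and 2 lower, and includes the near-identical CBWD genes, whose counts are uncertain. The manganese list had 3 of 5 (2 higher, 1 lower). The list of zinc enzymes, which holds alkaline phosphatases and carbonic anhydrases by gene name only, had 2 of 5, both lower.

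Of the 31 tested, 4 were called with at least a 1.5-fold change, all of them lower, beside 14.5% of all tested genes in either direction. SLC31A1, the copper importer of the plasma membrane, had 21.29, 21.37 and 20.36 FPKM in si-NC and 12.96, 13.31 and 13.67 in si-STRIP2. With no overlap between groups, its log2 fold change was -0.66 (SE 0.044, edgeR adjusted p = 1.30e-14). CDC26, on the other strand, held 24.2% as many counts. GPR39, a receptor that responds to extracellular zinc, had 0.87, 0.84 and 0.90 FPKM in si-NC and 0.49, 0.50 and 0.62 in si-STRIP2 (log2 fold change -0.70, SE 0.207, edgeR adjusted p = 0.00479; -0.28 on log2(FPKM + 1)). CA13, a carbonic anhydrase with zinc in its active site, fell by 0.61 on the log2 scale (edgeR adjusted p = 4.57e-08). STEAP4, a metalloreductase, was at most 0.23 FPKM in any library, its groups overlapped, and its call (-0.615, edgeR adjusted p = 0.0351) was lost under 7 of 14 alternatives.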

How the data were processed

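RNA was measured in 6 HCT116 libraries, 3 si-NC and 3 si-STRIP2. The authors deposited a raw count and an FPKM value per gene and library, per the file headers. The deposited FPKM equals the count scaled by exonic size and column total, within 0.005. Per the submitters' processing notes, bcl2fastq 2.20.0.422, FastQC 0.10.1, cutadapt 1.9.1, HISAT2 2.2.1, HTSeq 0.6.1 and the build GRCh38.p13 were used. The annotation release, and whether counting used strand, are not given in the sources used here. Per the labels' protocols the kit was directional and poly(A) RNA was selected.

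The filter was filterByExpr with a minimum count of 10, and 15687 genes passed. Libraries were scaled by TMM. Genes were tested with the 2-sided quasi-likelihood F test of edgeR 4.0.16 in R 4.3.3, with group as the only term and Benjamini-Hochberg adjustment over all tested genes. A gene was called at an adjusted p under 0.05. A standard error is the size of the log2 fold change over the root of its F. Described in full were tested metallothioneins, MTF1, the 4 most abundant tested genes of each transporter family, and transporters and other metal genes called with at least a 1.5-fold change; SLC39A8, SLC39A10, SLC39A11, SLC39A3, SLC39A4, SLC39A13, SLC39A1 and SLC30A7 were added after their values were seen. Alternatives included DESeq2 1.42.0 and limma 3.58.1. Members and lists were chosen with earlier results of these data known.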

Additional observations from a re-analysis of the deposited data

How the results depend on the processing

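Of 23 tested members, 16 were called (3 higher, 13 lower). Tested against a 1.2-fold change, 5 were called, 1 higher (SLC30A3) and 4 lower (SLC30A1, SLC30A4, SLC30A9 and SLC39A11). For the test against a 1.2-fold change, here and below, the share of all tested genes called was not counted. With at least 5 FPKM in 3 libraries, which left 15 members tested, 1 was called higher, since SLC30A3 and SLC39A3 were not tested. Leaving out each library gave 14 to 17 calls, 2 to 3 higher and 11 to 14 lower. Of the other metal genes 17 were called (7 higher, 10 lower), 10 with the 5 FPKM filter (4 lower, 13 tested), 4 against a 1.2-fold change (1 higher, 3 lower), and 15 to 18 when a library was left out (6 to 8 higher, 9 to 11 lower).

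No member called in the edgeR test changed direction under any of the 16 alternatives. Of the members not called, SLC39A1 (-0.064 to 0.231) and SLC39A4 (-0.160 to 0.001) changed sign when single libraries were left out. STRIP2 stayed lower and called under 15, at -0.54 to -0.35, and did not pass the 5 FPKM filter. Pseudocounts shrank low genes: SLC30A4 was -0.56 and SLC30A3 0.67 on log2(FPKM + 1). With the replicate number as a block, only the call of SLC39A10 was lost. The numbers showed no sign of pairing the libraries. Correlations of same-numbered libraries' deviations from their group means were -0.0849, -0.0129 and -0.0715, beside -0.0405 to 0.112 for different numbers. With 3 libraries per group, these values cannot settle whether equal numbers were prepared together. Members with under 30 counts per library are limited by depth.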
